A study of Oncorhynchus mykiss with 15 samples.

Results

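A small group of 26 genes fell in steps from visceral fat through subcutaneous fat to intramuscular fat in mature adipocytes of rainbow trout (Oncorhynchus mykiss). They are 26 of the 25695 genes with enough reads to test, in a table of 64494 genes. The genes were chosen by their measured values in these same libraries, in TMM CPM, which are counts scaled to a common library total and corrected for differences in composition. The rule required a mean of at least 10 CPM in visceral fat (VAT). It also required every VAT library above every library of subcutaneous fat (SAT), and every SAT library above every library of intramuscular fat (IMAT). Finally, the mean had to be over 2 times higher in VAT than in SAT, and over 2 times higher in SAT than in IMAT. The falls themselves are thus a description, and the counts of test calls given for them are no independent evidence.

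Adult fish were kept untreated at 15 °C and were unfed for 24 h. The 3 groups are named by depot and no other factor. Each depot gave 5 RNA libraries from adipocytes freed with collagenase. The labels do not state which fish gave which library, whether animals were pooled, or their age, sex or strain. The libraries are counted as separate samples, and their spread may be partly technical.

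Adipocytes hold the body's store of triglyceride in a large droplet, taking up fatty acids after meals and releasing them in need. Trout lay down fat around the gut, beneath the skin and between muscle fibres, and these depots differ in their surroundings and in the cells that neighbour the adipocytes. The table lists Ensembl identifiers without gene names, and the supplied RefSeq gene table carries an Ensembl identifier in 0 of its 72772 lines. The members' functions are therefore not given, and the purity of the adipocytes could not be checked by marker genes. Members are numbered 1 to 26 by their mean CPM in VAT, a numbering that says nothing about levels per gene length. Identifiers are printed for 5 of them.

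Total counts ran from 5872244 to 9414223 in the VAT libraries, from 4203986 to 7243006 in SAT and from 2413951 to 4199494 in IMAT. A floor of 3 counts equalled 0.28 to 0.466 CPM in VAT and 1.09 to 1.44 CPM in IMAT. Several libraries stood apart. IMAT replicate 2 had the most counts in its depot and the lowest TMM factor of all, 0.501. More genes had a count in VAT replicate 5 (43239), SAT replicate 4 (46175) and SAT replicate 5 (44738) than in the other libraries of those depots (37150 to 41316 in VAT and 36958 to 41002 in SAT).

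The rule narrowed steeply. Of the tested genes, 12478 averaged at least 10 CPM in VAT, 889 of these also had VAT over 2 times SAT, and 163 had both falls in their means. Separation of the VAT and SAT libraries left 90, and separation of SAT and IMAT left 26. Both separations were rare over all tested genes. All VAT libraries lay above all SAT libraries in 2.86% of them, all SAT above all IMAT in 2.82%, and both held in 0.179%. The mirror rule, rising from VAT through SAT to IMAT with at least 10 CPM in IMAT, took 335 genes.

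The lowest member mean in VAT was 12.7 CPM, and the nearest gene that failed on this level alone had 9.84 CPM. The smallest fall from VAT to SAT was 2.79-fold among members and 1.93-fold in the nearest gene that failed on it alone. For SAT to IMAT these values were 2.09-fold and 1.72-fold. At the limits on overlap, the lowest VAT library exceeded the highest SAT library by a factor of 1.01 in 1 member, and the lowest SAT library exceeded the highest IMAT library by a factor of 1.01 in another. Genes that failed on overlap alone numbered 26 for VAT and SAT and 64 for SAT and IMAT, with the nearest at ratios of 0.978 and 0.971.

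The members' number depended on the libraries used. It was 58 without VAT replicate 5 and 40 without IMAT replicate 5, and it was 26 to 39 when any other single library was left out. Without VAT replicate 5 and SAT replicates 4 and 5 together, 105 genes met the rule, of which 24 were members. Leaving libraries out loosens the demand that depots do not overlap, so larger numbers were favoured in each case. With library totals in place of TMM there were 50 genes, including 25 of the 26 members. At equal depth, with each library thinned at random to 2413951 counts, 24 genes met the rule and only 15 of them were members.

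ENSOMYG00000011265, member 1, had the highest mean in VAT. Its VAT libraries held 1501, 1386, 1759.8, 1720.1 and 699.96 CPM, in order of replicate number. Its SAT libraries held 63.5, 60.4, 57.7, 54.0 and 37.2 CPM, and its IMAT libraries 8.79, 8.14, 8.38, 8.71 and 10.1 CPM. The depots lay far apart. The IMAT values were close to each other, but rested on 17 to 28 counts per library, few for judging agreement. The VAT mean was 1413 ± 427.6 CPM (SD, n = 5), the SAT mean 54.6 ± 10.3 CPM and the IMAT mean 8.83 ± 0.772 CPM. These means fell 25.9-fold from VAT to SAT and 6.18-fold from SAT to IMAT. In bulk RNA, fewer cells that use a gene and less of its RNA per cell cannot be told apart.

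ENSOMYG00000060379 (member 3) and ENSOMYG00000028938 (member 2) had the largest falls from VAT to SAT in their means. By medians, members 7 (156.0-fold), 6 (146.1-fold) and 4 (140.5-fold) fell more than ENSOMYG00000028938 (128.1-fold) and ENSOMYG00000060379 (127.8-fold). ENSOMYG00000060379 held 1076, 2593, 762.0, 645.1 and 173.4 CPM in VAT, then 5.96, 2.91, 3.81, 6.41 and 9.86 CPM in SAT, and 1.20, 0.958, 0, 0.871 and 0 CPM in IMAT. ENSOMYG00000028938 held 1363, 3333, 884.6, 753.8 and 184.7 CPM in VAT, 6.90, 6.18, 3.81, 7.01 and 12.9 CPM in SAT, and 2.00, 2.87, 0, 0 and 0 CPM in IMAT. Both were highest in VAT replicate 2 and lowest in VAT replicate 5, where they still exceeded every SAT library.

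The mean of ENSOMYG00000060379 fell 181.3-fold from VAT (1049.8 ± 921.4 CPM, SD, n = 5) to SAT (5.79 ± 2.70), and that of ENSOMYG00000028938 fell 177.2-fold (from 1304 ± 1210 to 7.36 ± 3.35). In IMAT they had 7 and 11 counts in all libraries together. The ratio of pooled counts, SAT to IMAT, was 9.64 for ENSOMYG00000060379 (95% counting interval 4.58 to 24.3) and 7.69 for ENSOMYG00000028938 (4.21 to 15.6). VAT replicate 2 carried part of the first fall, which was 114.7-fold for ENSOMYG00000060379 and 108.2-fold for ENSOMYG00000028938 without it. Without IMAT replicate 2, which held 6 of its 11 IMAT counts, the SAT to IMAT ratio of ENSOMYG00000028938 was 13.9. The ratio was 11.1 without IMAT replicate 1, and 5.89 to 6.29 without any one of IMAT replicates 3, 4 and 5. The counting intervals are exact binomial intervals turned into ratios and cover counting error only. The CPM of ENSOMYG00000060379 was 0.778 to 0.939 of that of ENSOMYG00000028938 across the VAT libraries and 0.471 to 1 of it across the SAT libraries, and in the IMAT libraries with counts of both it was 0.6 and 0.333. Whether they are similar copies that share reads, as salmonid gene pairs can, was not tested.

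ENSOMYG00000002109 (member 14) and ENSOMYG00000024044 (member 23) had 0 counts in all 5 IMAT libraries. ENSOMYG00000002109 held 158.0, 464.3, 129.1, 85.2 and 44.96 CPM in VAT and 2.67, 1.27, 0.152, 2.54 and 2.09 CPM in SAT. ENSOMYG00000024044 held 22.3, 44.4, 10.4, 14.8 and 5.50 CPM in VAT and 0.941, 0.182, 0.457, 1.34 and 0.569 CPM in SAT. Both thus had their highest VAT value in replicate 2, and in each at least 1 SAT library lay below the 3-count floor. With that floor set over the whole depot, the bound on the fall from SAT to IMAT was 6.85-fold for ENSOMYG00000002109 and 2.84-fold for ENSOMYG00000024044. These bounds take the SAT level as exact, and the counting intervals began lower, at 5.38 and 2.13. Without SAT replicate 4 the bound of ENSOMYG00000024044 was 2.16. For VAT the same bounds were 612.3 and 67.97, with intervals that began at 497.8 and 55.1. The bound of ENSOMYG00000002109 was 399.3 without VAT replicate 2.

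**Figure D1:**
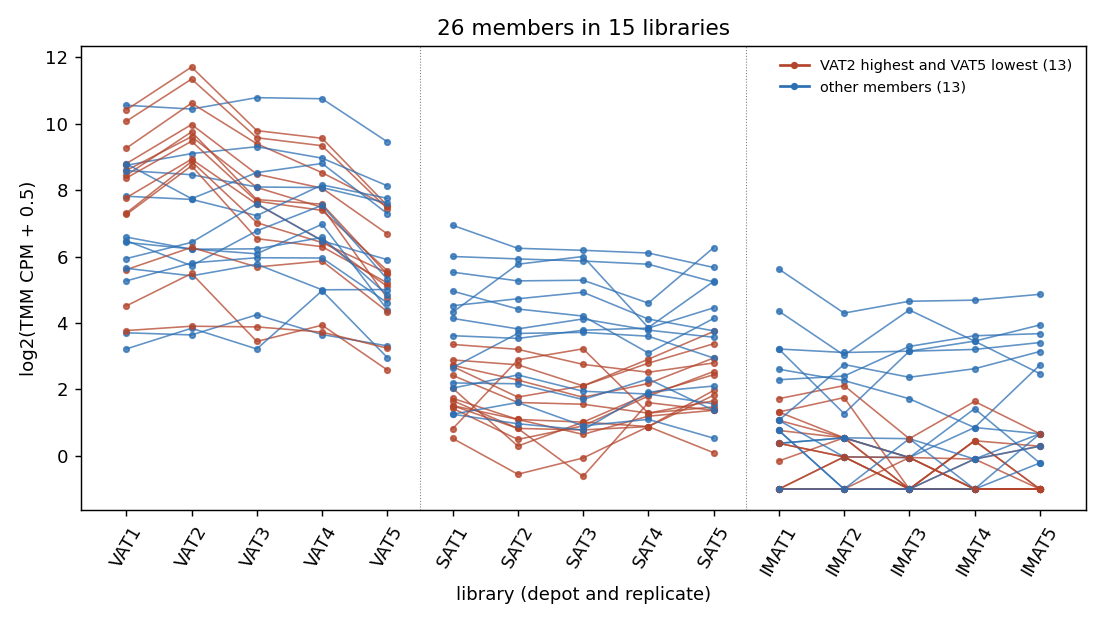
Level of each of the 26 members in each of the 15 libraries, as log2(TMM CPM + 0.5), with lines joining the libraries of a depot for 1 member. The 13 members highest in VAT replicate 2 and lowest in VAT replicate 5 (red) reach SAT means of 7.36 CPM at most, and many points in IMAT lie at 0 counts, the lowest level drawn.

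Over all members, the mean ran from 12.7 to 1413 CPM in VAT (median 189.9), from 0.698 to 77.8 CPM in SAT (median 4.62) and from 0 to 29.3 CPM in IMAT (median 0.706). Together they took 0.883% ± 0.508 of the VAT counts (SD, n = 5), 0.037% ± 0.00435 of the SAT counts and 0.00803% ± 0.00301 of the IMAT counts. Member 1 alone did not set this, since the share in VAT was 0.732% without it. The share varied widely within VAT, from 0.305% in replicate 5 to 1.70% in replicate 2. In SAT it stayed between 0.0332% and 0.0431%.

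The fall from VAT to SAT was the larger of the pair for most members. On the fitted log2 scale it exceeded the fall from SAT to IMAT in 21 of 26. The median fitted log2 difference was 4.71 between VAT and SAT and 2.57 between SAT and IMAT. With the 2 members at 0 counts in IMAT set to their bounds, the latter was 2.46. Over all tested genes the same medians were 0.03 and 0.05. Low SAT levels limited how large a second fall could be measured, so the falls are not compared over the same range. The SAT mean was under 10 CPM in 18 of 26 members. Pooled SAT levels were a median of 18.0 times (2.84 to 309.4) a floor of 3 counts in all IMAT libraries together. That floor is lower than the 1.09 to 1.44 CPM that 3 counts give in a single IMAT library. The median first fall was 26.9-fold in the means. Member 12, which had the most IMAT counts (352), held 149.7 to 284.6 CPM in VAT, 50.4 to 122.2 in SAT and 19.2 to 48.8 in IMAT, and its mean fell 2.79-fold and then 2.65-fold. Member 17 had the largest measured second fall, 34.8-fold in its means. It held 8.06 to 30.6 CPM in SAT and 0 to 1.20 CPM in IMAT, where it had 7 counts in all. The 95% counting interval of its pooled ratio was 15.3 to 79.2. Those of members 7, 15 and 24, with 1 IMAT count each, reached 888.5, 919.1 and 796.6, so its rank is not settled.

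Few IMAT reads stood behind the second fall. The pooled IMAT counts of a member ran from 0 to 352, with a median of 8.5, and 4 members had over 100. At least 1 IMAT library was at 0 in 15 members, and 14 members had at most 3 counts in each IMAT library. In 10 members the lowest SAT library lay below 1.44 CPM, the highest level that 3 counts give in IMAT. The 95% counting interval of the pooled SAT to IMAT ratio lay above 1 in all 26 members and above 2 in 22. The interval of VAT to SAT lay above 2 in all 26. The rule asked for falls over 2-fold in these same libraries, which favours such intervals, so these counts only describe. The intervals leave out the spread between libraries, and the share over all tested genes was not counted.

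**Figure D2:**
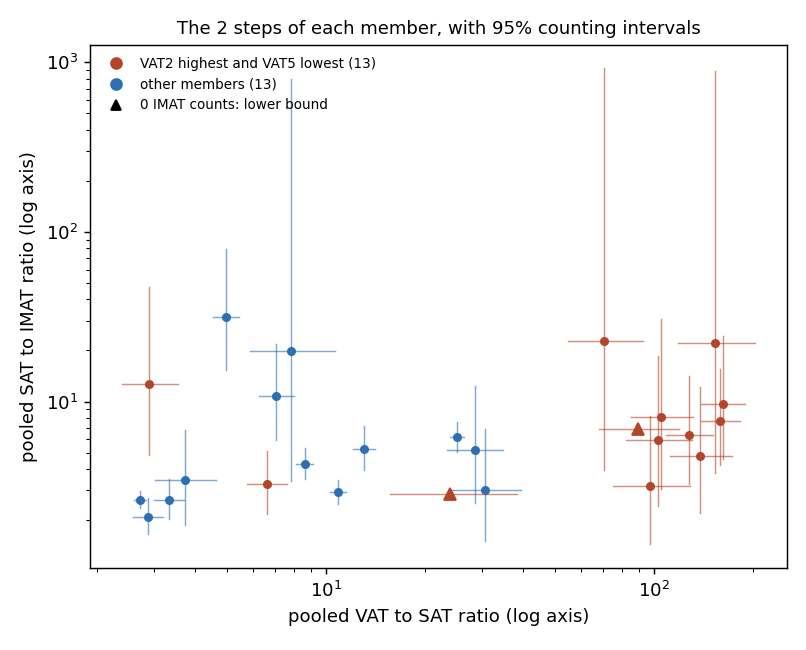
Ratio of pooled, depth-scaled counts between VAT and SAT (horizontal, log axis) and between SAT and IMAT (vertical, log axis) for each member, with 95% counting intervals as lines and lower bounds for the 2 members with 0 IMAT counts as triangles. These bounds take the SAT level as exact. The 10 members whose means fell over 70-fold from VAT to SAT all belong to the set highest in VAT replicate 2. Among them, ENSOMYG00000002109 has 0 IMAT counts and no vertical interval, and the vertical intervals of the others are wide.

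The edgeR quasi-likelihood test across all genes, with Benjamini-Hochberg adjustment and a threshold of 0.05, used the contrasts that chose the members, so its calls describe them only. All 26 were called higher in VAT than in SAT, against a background of 2.37% of tested genes. For SAT over IMAT, 18 were called, with 3.22% in the background, and the same 18 were called in both steps, with 0.234% in the background. All 26 were called higher in VAT than in IMAT, where the background was 8.12%. The number called depended on the method, most of all in the second step. That step was called in 24 members by DESeq2, in 7 by limma-voom, and in 6 when edgeR tested whether the change exceeded 2-fold. The first step was called in 26, 26 and 21 members by the same methods. With single libraries left out in turn, 14 to 24 members were called in the second step, SAT over IMAT. ENSOMYG00000011265, ENSOMYG00000060379 and ENSOMYG00000028938 were called in this step, the first of them under every alternative run. The calls for ENSOMYG00000060379 and ENSOMYG00000028938 were lost with limma-voom and in the test for changes beyond 2-fold. That for ENSOMYG00000028938 was also lost with no filter on low counts, and without any one of SAT replicates 1, 2, 4 and 5 or IMAT replicates 3, 4 and 5. ENSOMYG00000002109 and ENSOMYG00000024044 were not called in SAT over IMAT. Both were called by DESeq2 and without VAT replicate 2. ENSOMYG00000002109 was also called with the replicate number as a block, with library totals, and without VAT replicate 5 or SAT replicate 3, and ENSOMYG00000024044 with no filter.

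The order of the depots was then read in libraries left out of each choice of genes, though the rule itself was set with all 15 libraries known. Replicates of 1 number were left out of each depot, the rule was applied to the other 12 libraries, and the order was counted in the 3 left out. The replicate number serves only as a name here, and the filter and the scaling still came from all 15 libraries. Without replicates 1, 41 genes met the rule, and 40 of them had VAT above SAT above IMAT in the left-out libraries. The counts were 34 of 39 for replicates 2, 37 of 39 for replicates 3 and 34 of 41 for replicates 4. For replicates 5, 90 genes met the rule and 68 kept the order.

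Summed over these 5 choices, 213 of 250 were in order (85.2%). The choices overlap, and each held 25 or 26 of the 26 members, so most members were counted in every choice. Members have separated depots in all 15 libraries, so their order in the left-out libraries was fixed in advance. Only chosen genes that were not members could lose the order, so the percentage is no check on the members. The same order was found in 22.3% to 23.9% of all tested genes, which were not chosen for any difference between depots. The members in each choice, already in order by the rule, were enough on their own to exceed that share. Of the 250, 240 had VAT above SAT and 223 had SAT above IMAT. Apart from replicates 5, where 80 of 90 had VAT above SAT, every gene chosen had VAT above SAT in the libraries left out.

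**Figure D3:**
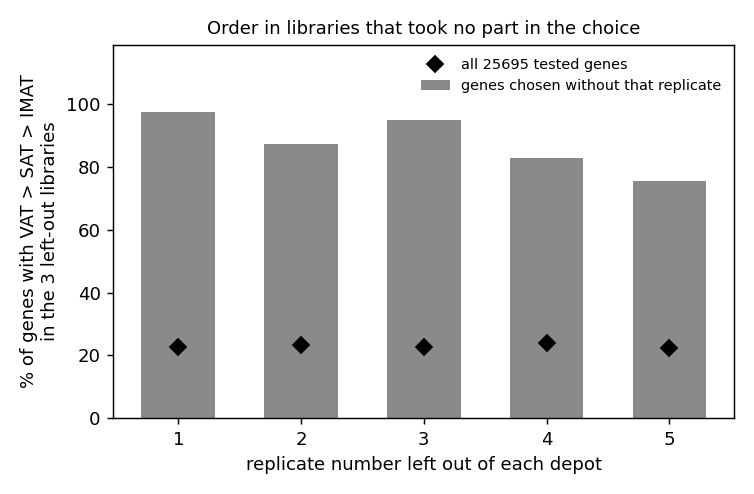
Percent of genes with VAT above SAT above IMAT in the 3 libraries left out (vertical), by the replicate number left out of each depot (horizontal). Bars show the genes that met the rule in the other 12 libraries, from 75.6% to 97.6%, and diamonds show all 25695 tested genes, from 22.3% to 23.9%. The bars include members, whose order was fixed in advance by the rule.

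The members did not vary alike between VAT libraries. The rule did not ask for this variation but bounded it, since the lowest VAT library had to exceed the highest SAT library. VAT replicate 5 was the lowest VAT library in 24 of 26 members. On the log2 scale it lay on average -1.28 from a gene's VAT mean in the members and 0.0285 over all tested genes. The share of tested genes lowest in it was not counted. In 13 members (numbers 2, 3, 4, 6, 7, 8, 11, 13, 14, 15, 20, 23 and 26) replicate 5 was the lowest and replicate 2 the highest. This order was found in 6.23% of all tested genes and in 5.55% of those with at least 10 CPM in VAT. Among the 291 genes that met the VAT to SAT conditions but not both SAT to IMAT conditions it was found in 17.2%. In the other 13 members, replicate 3 or 4 was highest in 11 and replicate 5 was lowest in 11. The division was made after the values had been seen and is not tested.

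Most of the 13 members highest in VAT replicate 2 had a steep first fall and little signal elsewhere. Members 20 (6.97-fold) and 26 (2.94-fold) fell least among them. The 13 had a median VAT replicate 2 to replicate 5 ratio of 11.7 (1.61 to 29.5), against 1.81 (0.978 to 3.61) in the others. That contrast follows in part from how the set was defined. The means of the 13 fell from VAT to SAT by a median of 113.8-fold (2.94 to 181.3), against 8.29-fold (2.79 to 31.6). All 10 members with a fall over 70-fold were among them. Across the 26 members, the log2 ratio of the VAT and SAT medians and the log2 ratio of VAT replicates 2 and 5 correlated with Pearson's r = 0.88 and Spearman's rho = 0.85. The VAT libraries enter both measures, and members are not independent, so these values only describe. The rule also ties the measures. A member with a high replicate 2 to replicate 5 ratio passed only if replicate 5 exceeded every SAT library.

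Summed over these 13 members, the level was 5170, 12362, 3844, 2905 and 909.6 CPM in VAT replicates 1 to 5. It was 51.8, 39.3, 35.3, 41.02 and 62.8 CPM in SAT, and 11.6, 12.5, 2.79, 6.09 and 2.53 CPM in IMAT. The spread was thus over 10-fold within VAT and under 2-fold within SAT, and SAT replicate 5, not SAT replicate 2, was the highest. SAT replicate 5 was the highest SAT library in 7 of the 13, and the share over all tested genes was not counted. For the other 13 members the sums were 3421, 3119, 3768, 3846 and 1765 CPM in VAT, 236.3 to 350.0 CPM in SAT and 54.6 to 103.5 CPM in IMAT.

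Pairs of the 13 members correlated across the 5 VAT libraries with a median r of 0.97 on the log2 CPM scale, and pairs of the other members with a median r of 0.56. The shared extremes that define the first set favour its high value. In SAT the medians were 0.52 and 0.22, and in IMAT 0.28 and 0.25, where most of these genes have few counts. The SD of log2 CPM over the VAT libraries had a median of 1.31 for the first set and 0.59 for the second, against 0.38 for all genes with at least 10 CPM in VAT. The definition of the first set favours its higher SD as well. VAT replicate 5 and SAT replicate 5 also had more genes with a count than most other libraries of their depots, and the part of this in the members' levels was not tested. Without gene names, the part of other cell types in the preparations was not tested either.

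**Figure D4:**
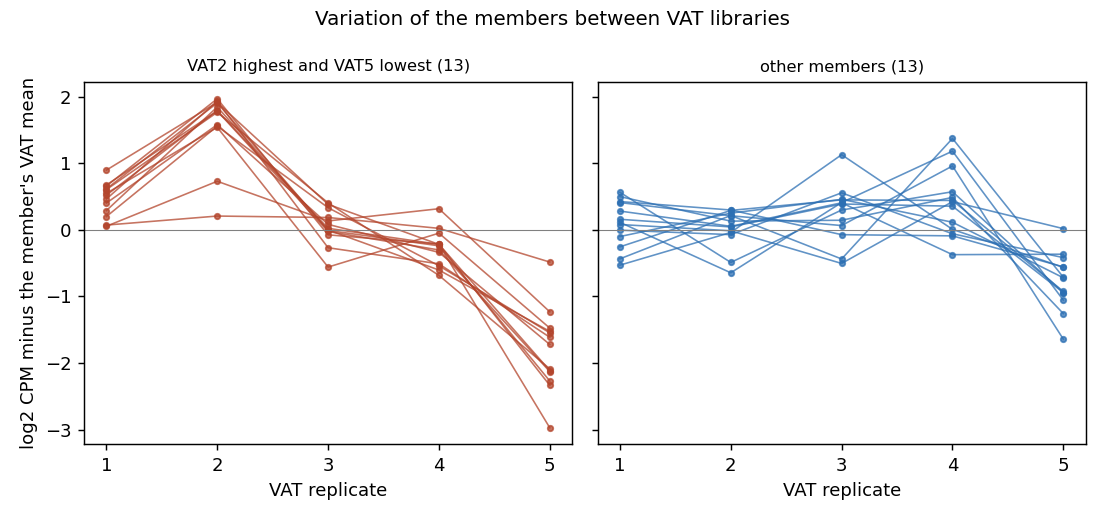
Log2 CPM of each member in the 5 VAT libraries, relative to that member's VAT mean, with lines joining the values of 1 member and no order implied among replicates. The 13 members on the left were chosen as highest in replicate 2 and lowest in replicate 5, and their ratios of these 2 are 1.61 to 29.5. Those on the right have ratios of 0.978 to 3.61. Member 26, on the left, barely rises in replicate 2 (14.5 CPM, against 14.2 in replicate 3).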

How the data were processed

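RNA was sequenced from mature adipocytes of 3 depots, 5 libraries each, and groups were taken from the sample titles. Per the labels, ribosomal RNA was removed before library construction and reads were paired. The authors deposited raw counts per gene. Trimmomatic 0.30, STAR 2.5.2b, featureCounts from Subread 1.5.2 and DESeq2 1.6.3 were used, per the submitters' processing notes. Not given in the sources used here are the genome build, annotation, strand setting and treatment of multiply mapped reads, so counts of genes with similar copies or overlapping neighbours are uncertain. Of 30 library pairs within depots, the closest had a chi-square of 6.37 per degree of freedom, so each library counted once.

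Genes were kept by filterByExpr by depot (minimum count 10, minimum total 15) and scaled by TMM in edgeR 4.0.16 (R 4.3.3). The quasi-likelihood test used 15 libraries in 1 fit, with a term for depot and no other, and Benjamini-Hochberg adjustment over all tested genes. DESeq2 1.42.0 and limma 3.58.1 gave alternatives. Log2 CPM within depots used a prior count of 2. Median differences of log2(CPM + 1) over all tested genes were 0.03 for VAT minus SAT and 0.11 for SAT minus IMAT with TMM, and 0.04 and 0.36 with library totals.

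The members, the rule and the tests were chosen with earlier results of these data known. Identifiers are printed for the 2 members with the largest ratio of mean VAT to SAT CPM, the 2 with the largest ratio of SAT to IMAT, where an IMAT mean of 0 counted as the largest, and the 2 with the highest VAT mean, with 1 member counting under both the first and the last. Lists of marker and pathway genes could not be matched to identifiers and were not used, and no sequence is printed. Leaving out single libraries for the folds and bounds of these 5 was decided after seeing the data.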

Additional observations from a re-analysis of the deposited data

Results flagged for a closer look

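In 2 of 21 groups of 5 libraries examined, 1 library's gap to its nearest neighbour exceeded 0.71 of the group's range. Chance gives about 1 in 20 such groups, or 1.05 here. ENSOMYG00000002109 held 464.3 CPM in VAT replicate 2, against 44.96 to 158.0 CPM in the other VAT libraries. IMAT replicate 2 had 4199494 counts in total, against 2413951 to 2655266 in the other IMAT libraries. The gap ratios were 0.73 and 0.865.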

How the results depend on the processing

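The number of genes meeting the rule moved most with the demand for separated libraries. It was 163 with overlap allowed, 105 without VAT replicate 5 and SAT replicates 4 and 5 together, and 50 with library totals. Leaving out a single library, which loosens the demand for separation, gave 26 to 58. It was 20 to 34 under the other 9 alternatives (size factors, upper-quartile factors, no filter, equal depth, folds of 1.5 and 3, VAT levels of 1 and 50 CPM, medians). Of the 26 members, all passed with no filter and 15 at equal depth. Members called in SAT over IMAT numbered 7 by limma-voom and 6 in the edgeR test for changes beyond 2-fold, and those called in both steps 7 and 5. In the latter test 21 were called in VAT over SAT. Single libraries left out gave 25 to 26 for VAT over SAT, 14 to 24 for SAT over IMAT and 13 to 24 for both. With the replicate number as a block (replicate block), 26, 21 and 21 were called. Correlations of same-numbered libraries' deviations ran from -0.13 to 0.53. They exceeded 0.1 in every depot pair for numbers 1, 3 and 5 and not for 2 and 4, which cannot settle whether samples are paired. The labels name no pairs, so the main fit treated none, and whether some share a fish is not known. The members' share of SAT counts was 0.0313% without member 1. Fits of SAT and IMAT alone gave no value for ENSOMYG00000002109 and ENSOMYG00000024044. For the 5 printed identifiers, 0 of 238 fitted steps, each 1 step of 1 gene under 1 alternative, reversed direction. The rule had already separated the depots in all 15 libraries, so this 0 was nearly fixed in advance and is no check. Among the 238 steps, 12 lost a call and 9 gained one. The cause of these differences was not tested. The members had a median of 8.5 pooled IMAT counts.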
